A study of Mus musculus with 54 samples.

Results

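Hyper-IL-6 was compared with GFP-PFC in parental Ba/F3-gp130 cells on 6 of the 27 mouse arrays of the series, 3 for each stimulation, chosen by their labels alone. Ba/F3 cells are a line of mouse pro-B cells, and their gp130 form carries the signalling chain that receptors of the interleukin-6 family share. Parental cells had no further construct, whereas each of the CIR lines in the series (CIR-1 to CIR-3) carried a Cargo Internalization Receptor. Hyper-IL-6 joins interleukin-6 and the soluble interleukin-6 receptor in 1 protein that binds gp130 directly. GFP-PFC is a perfluorocarbon emulsion whose name includes green fluorescent protein. Per the labels, cells of both groups were grown with 10 ng/ml Hyper-IL-6, washed 4 times in PBS, kept without serum for 3 h and then stimulated for 1 h, with 100 ng/ml Hyper-IL-6 or with 50 µl of GFP-PFC per ml. A group of 3 unstimulated parental arrays (numbers 1, 3 and 5) and the GFP-PFC and unstimulated arrays of the CIR lines (9 each) served for reference. Per the labels, these cells were grown, washed and kept without serum in the same way, and the CIR lines received the same dose of GFP-PFC for 1 h. GFP-PFC cells also received an addition, so this comparison sets 1 addition against another, and no arm with plain liquid was analysed here.

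As background, binding of the interleukin-6 and receptor complex pairs gp130 chains, and the attached Janus kinases (JAKs) phosphorylate gp130 and the transcription factors STAT3 and, in blood cells, STAT5. STAT dimers enter the nucleus and switch on a short-lived first wave of genes, among them SOCS proteins that shut the receptor down. gp130 also feeds the RAS/ERK kinase cascade, whose targets include the immediate early transcription factors and the phosphatases that limit ERK. Ba/F3 cells need a cytokine signal to survive and divide.

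Values are log2 signals of 19920 genes. Array medians of the 6 arrays lay between 7.57 and 7.61, and the number of arrays limits the precision. Across genes, correlations were 0.9951 to 0.9979 between GFP-PFC and Hyper-IL-6 arrays, 0.9962 to 0.9982 within GFP-PFC and 0.997 to 0.9988 within Hyper-IL-6. A mean under 6.283, the median lower quartile of the arrays, was not shown to lie above background. Of 19 measured pro-B markers 12 lay above it, among them the B cell receptor chains Cd79a (9.55 to 9.89 over the 6 arrays) and Cd79b (9.84 to 9.98), while the B lineage factor Ebf1 (5.82 to 6.05) did not. Markers of other blood cells were above it too, 11 of 16 for mast cells and basophils, 15 of 19 for macrophages and neutrophils, 11 of 16 for T and NK cells and 8 of 9 for the erythroid and megakaryocyte lineages. Of all 19920 genes 16124 lay above it, so these counts alone do not show the lineage of the cells. Of the markers in all these lists 0 were called between the stimulations, where 0.507% of all genes were called. The mast cell marker Fcer1a, a chain of the IgE receptor, read 9.15, 8.38 and 8.46 after Hyper-IL-6 and 9.74, 8.87 and 9.52 after GFP-PFC. Its groups overlapped and the difference was −0.71 (SE 0.28, adjusted p = 0.722), but it was called under 2 of the 22 other settings (adjusted p = 0.0207 and 0.0316). Ms4a2, another chain of that receptor, differed by −0.33 (SE 0.22, adjusted p = 1). Their mean levels per array spanned 7.48 to 7.49 after GFP-PFC and 7.49 to 7.58 after Hyper-IL-6 for pro-B cells, and 7.44 to 7.60 and 7.48 to 7.55 for mast cells and basophils. For macrophages and neutrophils these spans were 7.47 to 7.50 and 7.47 to 7.55, for T and NK cells 6.85 to 6.92 and 6.91 to 7.00, and for the erythroid list 8.58 to 8.71 and 8.65 to 8.73. Separate cultures behind the 3 arrays of each group are not stated in the labels. The p values measure only the spread between arrays within the 9 groups of the fit to all 27 arrays, and that spread may be technical.

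Almost all the difference lay on the side of Hyper-IL-6. Of 19920 genes, 101 differed (0.507%, limma, adjusted p under 0.05), 98 higher after Hyper-IL-6 (0.492%) and 3 lower (0.0151%). Of the 98, 39 were higher by at least 1 on the log2 scale, 9 by at least 2 and 4 by at least 3, namely Osm, Lif, Socs3 and Gadd45g, whereas 0 genes were lower by 1 or more. The Hyper-IL-6 and GFP-PFC arrays did not overlap in any of the 101 called genes. Over all genes, 6.08% had all 3 Hyper-IL-6 arrays above all 3 GFP-PFC arrays and 5.26% had them below. At an unadjusted p under 0.05 there were 658 higher and 420 lower genes. The count of 101 became 40 without Hyper-IL-6 array 4, 42 without array 6 and 155 without array 2, and 55 or 57 without GFP-PFC array 2 or 4. With limma's array weights it became 1927 (963 higher, 964 lower), so the share of higher genes among the calls depends on that choice, and in a fit to the 6 arrays alone it was 66 (62 higher, 4 lower).

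**Figure D1:**
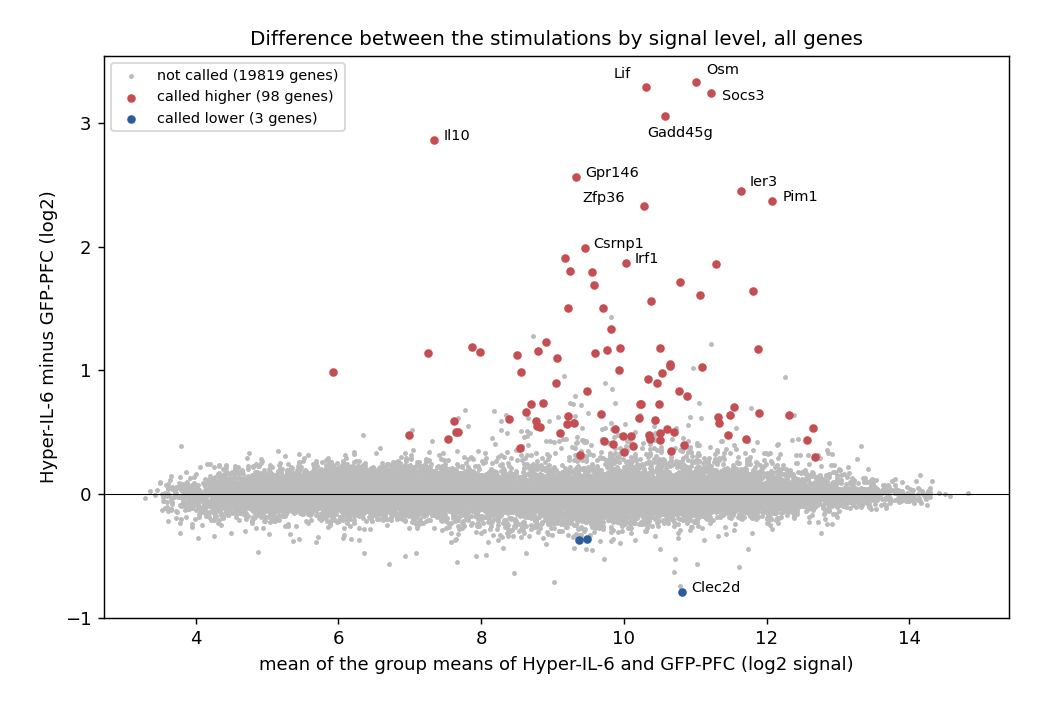
Each point is 1 gene; the horizontal axis gives the mean of both group means (log2 signal) and the vertical axis Hyper-IL-6 minus GFP-PFC (log2), with 3 arrays per group. The 98 genes called higher reach 3.33 (Osm), and the lowest of the 3 called lower, Clec2d, lies at −0.80.

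Genes of the receptor side of the pathway itself were not called. Of 17 measured genes for gp130-family receptors, JAKs and STATs, 0 were called, with a median difference of 0.07 against 0.01 over all genes and a range from −0.14 (Il6st) to 0.29 (Jak2). Over all genes 0.507% were called, so 0 of 17 is near that share. Il6st, the mouse gene for gp130, read 6.31, 6.34 and 6.21 after Hyper-IL-6 and 6.39, 6.42 and 6.45 after GFP-PFC, close to the lower quartile in both groups. The sources used here do not give the species of the introduced gp130, so this mouse probe set may not measure it. The JAK kinase Jak1 read 12.31, 12.44 and 12.49 against 12.43, 12.25 and 12.23, and the groups overlapped (difference 0.11, 95% interval −0.07 to 0.29, adjusted p = 1). Stat3, the main transcription factor of the pathway and one of its own targets, read 12.32, 12.37 and 12.36 against 12.03, 12.20 and 12.12. Its groups did not overlap, but the difference of 0.23 (95% interval 0.06 to 0.40) had an adjusted p of 0.534. Stat3 and Jak2 were each called under 2 of the 22 other settings and Jak1 under 1, in all 3 genes with array weights (adjusted p = 0.0199, 0.000263 and 0.0471). Receptors for other blood cell growth factors also gave 0 calls of 19 (median 0.06). The one nearest to the called range was Il4ra, the interleukin-4 receptor chain, which read 12.68, 12.74 and 12.78 against 11.41, 12.04 and 11.91 (difference 0.95, SE 0.29, adjusted p = 0.314). Every Hyper-IL-6 array of Il4ra lay above every GFP-PFC array, and it was called under 4 of the 22 other settings (adjusted p = 0.000962 to 0.0188), among them the fit to the 6 arrays alone.

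Feedback inhibitors of the receptor were higher in 3 of 14 members of the SOCS and PIAS list, namely Socs3, Cish and Socs1, where 0.507% of all genes were called. Socs3, which binds gp130 and blocks its kinases (probe set 10393449), read 12.54, 12.98 and 13.01 after Hyper-IL-6, 9.25, 9.60 and 9.94 after GFP-PFC and 9.49, 9.95 and 9.92 without stimulation. All Hyper-IL-6 arrays thus lay far above the other groups, while GFP-PFC arrays 4 and 6 lay among the unstimulated ones and array 2 below them. The fitted difference was 3.25 (SE 0.28, 9.49-fold, adjusted p = 8.49e-08). Cish, a SOCS protein known as a STAT5 target, read 9.39, 10.49 and 10.52 against 8.23, 8.31 and 8.13. Hyper-IL-6 array 2 stood about 1 below the other 2 but above every GFP-PFC array, and the difference was 1.91 (SE 0.19, 3.76-fold, adjusted p = 1.13e-06). Socs1 read 8.93, 9.09 and 9.15 against 8.29, 8.40 and 8.31, a smaller step of 0.72 (SE 0.14, adjusted p = 0.0127) without overlap. Its call ended when Hyper-IL-6 array 4 or 6 or GFP-PFC array 2 or 6 was left out (adjusted p = 0.0526 to 0.123). Socs2, likewise a STAT5 target, did not pass (difference 0.27, 95% interval 0.11 to 0.43, adjusted p = 0.226), and the median of the 14 members was 0.01.

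Cytokine genes held the largest steps. Of 23 measured cytokines and chemokines, 9 were higher and 0 lower, with a list median of 0.59, where 0.507% of all genes were called. Osm, which encodes oncostatin M, a gp130 cytokine and a STAT5 target, read 12.01, 13.07 and 12.94 after Hyper-IL-6 and 9.09, 9.43 and 9.50 after GFP-PFC (difference 3.33, SE 0.22, 10.1-fold, adjusted p = 1.45e-09). Lif, leukaemia inhibitory factor and also a gp130 cytokine, read 10.95, 12.54 and 12.37 against 8.41, 8.97 and 8.62 (difference 3.29, SE 0.28, 9.77-fold, adjusted p = 8.49e-08). In both genes every Hyper-IL-6 array was above every GFP-PFC array and array 2 was the lowest of the 3. Il10, the anti-inflammatory interleukin-10, read 7.56, 9.57 and 9.20 against 5.91, 5.87 and 5.96, so that the spread within Hyper-IL-6 was itself about 2 on the log2 scale. The GFP-PFC arrays lay below the lower quartile, so the fitted 2.86 (SE 0.28, 7.28-fold, adjusted p = 9.85e-07) is a ratio of signals and may differ from that of the RNA. At exon level its probe sets differed by 0.93 to 4.80 (median 2.38), so the size of the step depends on the probe set.

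Il6 itself differed from these genes in that its level was already high. It read 11.68, 12.96 and 12.76 after Hyper-IL-6, 11.40, 11.25 and 11.24 after GFP-PFC and 10.87, 10.13 and 10.71 without stimulation. The GFP-PFC arrays thus lay between the other groups without overlap, and Hyper-IL-6 array 2 exceeded the highest of them by less than it missed arrays 4 and 6. Hyper-IL-6 minus GFP-PFC was 1.17 (SE 0.23, adjusted p = 0.0137), and GFP-PFC minus unstimulated was 0.72. The TNF-family ligands Tnfsf9 and Tnfsf14, costimulators of lymphocytes, were higher by 1.79 (SE 0.34) and 1.14 (SE 0.19), and the interferon-linked chemokine Cxcl10 by 1.15 (SE 0.24). Il13, a type 2 cytokine, and Ccl4, a chemokine, were higher by 0.67 (SE 0.15) and 0.59 (SE 0.11). Il4, also a type 2 cytokine, did not pass. It read 8.45, 9.90 and 9.73 against 7.83, 7.35 and 9.06 and the groups overlapped (difference 1.28, SE 0.41, adjusted p = 0.39). Leaving out Hyper-IL-6 array 4 ended the calls of Il6, Tnfsf9, Tnfsf14, Cxcl10, Il13 and Ccl4, and array 6 those of all of these but Tnfsf14. Leaving out GFP-PFC array 2 ended those of Cxcl10, Il13 and Ccl4, array 4 those of Il6, Tnfsf9, Cxcl10 and Il13, and array 6 that of Il6. In these cases adjusted p lay at 0.0612 to 0.221 for Il6, 0.0748 to 0.12 for Tnfsf9, 0.0512 for Tnfsf14, 0.137 to 0.303 for Cxcl10, 0.206 to 0.416 for Il13 and 0.0713 to 0.114 for Ccl4.

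**Figure D2:**
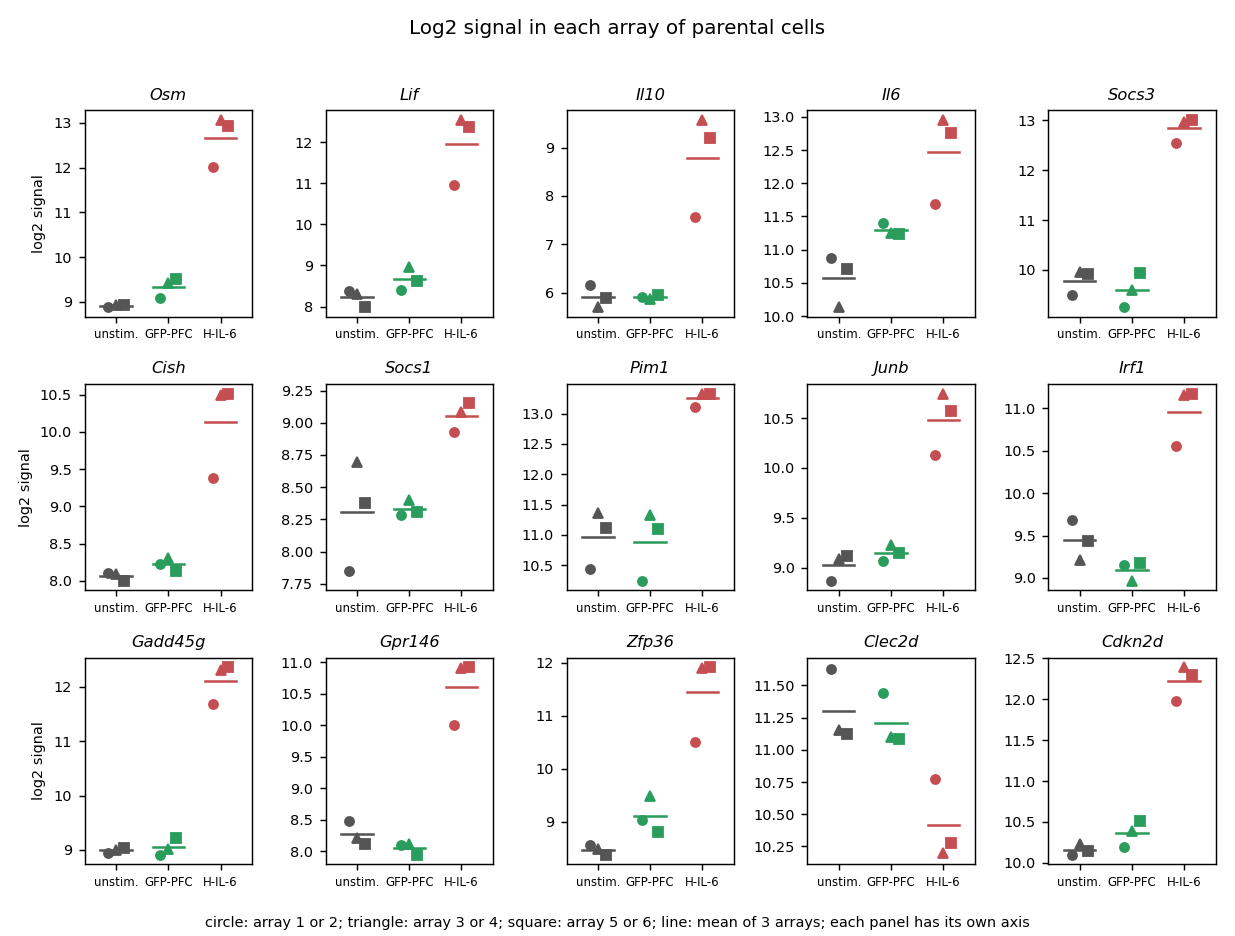
Log2 signal of 15 genes in each of the 9 arrays of parental cells, unstimulated (unstim.), after GFP-PFC and after Hyper-IL-6 (H-IL-6), with 1 point per array and a line at the mean of 3 arrays. In 14 genes the 3 Hyper-IL-6 arrays lie above the 3 GFP-PFC arrays, and in Clec2d they lie below.

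Known early targets of gp130 and STAT3 were the list with the most calls, 16 of 23 measured members and 0 in the other direction (median 0.95), where 0.507% of all genes were called. This and the other lists were chosen with earlier results of these data known, so their counts of calls are no separate support. Apart from the SOCS and cytokine genes, the highest were Gadd45g, Pim1, Zfp36 and Irf1. Gadd45g, a growth-arrest and stress-response gene (probe set 10405211), read 11.68, 12.30 and 12.36 against 8.91, 9.03 and 9.22, with the groups far apart (difference 3.06, SE 0.14, 8.34-fold, adjusted p = 1.39e-12). Zfp36, which encodes a protein that speeds the decay of cytokine mRNAs, read 10.50, 11.91 and 11.92 against 9.04, 9.50 and 8.81 (difference 2.33, SE 0.28, 5.03-fold, adjusted p = 2.01e-05). Irf1, a transcription factor also induced by interferons, read 10.55, 11.15 and 11.18 against 9.15, 8.96 and 9.17 and, without stimulation, 9.68, 9.21 and 9.44. Its GFP-PFC arrays were below all unstimulated arrays, so the difference of 1.87 (SE 0.13, adjusted p = 3.64e-09) exceeded the 1.52 against unstimulated cells.

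Pim1, a kinase gene that promotes survival of cytokine-dependent cells, read 13.10, 13.32 and 13.33 after Hyper-IL-6 and 10.24, 11.33 and 11.10 after GFP-PFC. GFP-PFC array 2 was the lowest, as array 1 was among the unstimulated ones (10.43, 11.35 and 11.12). The difference of 2.37 (SE 0.53, 5.16-fold, adjusted p = 0.0392) did not overlap, but its call ended when any of the 6 arrays was left out (adjusted p = 0.0665 to 0.37). Junb, a component of the AP-1 transcription factor, was higher by 1.34 (SE 0.12, adjusted p = 3.47e-07), reading 10.13, 10.75 and 10.58 against 9.07, 9.23 and 9.15. Its partner Fos read 9.29, 11.08 and 10.90 against 8.72, 8.85 and 8.63, a difference of 1.69 (SE 0.31, adjusted p = 0.00704) that rested mainly on Hyper-IL-6 arrays 4 and 6 and was no longer called without either (adjusted p = 0.119 and 0.105). The germinal-centre repressor Bcl6 (1.10), the hexokinase Hk2 (0.79), the C/EBP factors Cebpd (0.74) and Cebpb (0.39), the adhesion molecule Icam1 (0.73) and the survival factor Mcl1 (0.30) completed the called members. Mcl1, at 12.70, 12.87 and 12.91 against 12.56, 12.53 and 12.51, had the smallest called difference of all genes. The calls of these 6 genes ended without Hyper-IL-6 array 4 or 6 or GFP-PFC array 2, those of Bcl6, Cebpb and Mcl1 also without GFP-PFC array 4, and those of Hk2, Cebpb and Mcl1 without array 6. Adjusted p was then 0.178 to 0.239 for Bcl6, 0.0518 to 0.167 for Hk2, 0.0698 to 0.158 for Cebpd, 0.0965 to 0.402 for Cebpb, 0.0598 to 0.133 for Icam1 and 0.050 to 0.181 for Mcl1. The STAT5 target list shared Osm, Cish, Pim1, Gadd45g and Socs1 with those above, and 5 of its 15 members were called (median 0.53), against 0.507% of all genes.

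STAT dimers are known to bind the letters TTCNNNGAA, so the windows from 250 bases before to 50 after the annotated starts were searched for them (RefSeq, build GRCm38.p6; the letters read the same on both strands). Of the 98 higher genes 80 had an entry under their symbol, and 15 of these held a match at 1 or more of their starts (18.8%), against 1403 of 15614 measured genes (8.99%). The stricter TTCCNGGAA, which is contained in the first motif, was found in 4 of 80 (Bcl6, Cish, Icam1 and Sbno2) and in 1.43% of measured genes. The AP-1 letters TGANTCA, also read the same on both strands, stood in 14 of 80 (17.5%) against 8.08%, the cyclic AMP element TGACGTCA in 0 of 80 against 2.72%, and the serum response element (CArG box) in 2 of 80 against 1.63%. More than 1 start was listed for 25% of the higher genes and 16.9% of the measured ones, which gives the former more windows. A match is only a stretch of letters and no shown binding site, and no match says nothing of sites elsewhere. The 250 bases before the start are shown for 7 called genes whose window held TTCNNNGAA, read 5′ to 3′ along the gene's strand with the matches in capitals.
Socs3 (chr11:117969367-117969616, minus strand): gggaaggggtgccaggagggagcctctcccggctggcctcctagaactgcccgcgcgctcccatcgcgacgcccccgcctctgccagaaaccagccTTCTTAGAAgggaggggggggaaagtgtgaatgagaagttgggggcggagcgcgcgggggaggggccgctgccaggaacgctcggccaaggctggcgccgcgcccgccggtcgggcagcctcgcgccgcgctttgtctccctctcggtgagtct
Gpr146 (chr5:139380389-139380638, plus strand): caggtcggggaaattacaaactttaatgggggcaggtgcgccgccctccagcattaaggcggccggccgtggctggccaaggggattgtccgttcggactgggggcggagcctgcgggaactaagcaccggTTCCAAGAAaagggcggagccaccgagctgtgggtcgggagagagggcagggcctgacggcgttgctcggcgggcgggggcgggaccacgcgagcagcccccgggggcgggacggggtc
Irf1 (chr11:53769764-53770013, plus strand): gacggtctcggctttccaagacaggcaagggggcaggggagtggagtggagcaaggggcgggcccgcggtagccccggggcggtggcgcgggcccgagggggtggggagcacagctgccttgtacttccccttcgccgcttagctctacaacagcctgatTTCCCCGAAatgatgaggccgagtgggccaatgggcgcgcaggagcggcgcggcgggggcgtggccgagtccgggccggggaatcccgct
Zfp36 (chr7:28379229-28379478, minus strand): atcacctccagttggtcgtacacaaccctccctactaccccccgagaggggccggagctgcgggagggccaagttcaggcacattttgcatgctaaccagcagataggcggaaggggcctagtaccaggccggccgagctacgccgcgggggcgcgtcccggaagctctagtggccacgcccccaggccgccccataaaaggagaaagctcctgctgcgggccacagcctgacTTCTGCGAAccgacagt
Bcl6 (chr16:23981284-23981533, minus strand): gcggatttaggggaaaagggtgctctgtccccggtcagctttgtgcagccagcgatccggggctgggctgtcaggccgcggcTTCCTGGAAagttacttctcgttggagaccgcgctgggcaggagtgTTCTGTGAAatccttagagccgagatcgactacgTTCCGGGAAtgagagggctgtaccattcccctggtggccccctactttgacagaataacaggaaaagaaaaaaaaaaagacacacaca
Icam1 (chr9:21015690-21015939, plus strand): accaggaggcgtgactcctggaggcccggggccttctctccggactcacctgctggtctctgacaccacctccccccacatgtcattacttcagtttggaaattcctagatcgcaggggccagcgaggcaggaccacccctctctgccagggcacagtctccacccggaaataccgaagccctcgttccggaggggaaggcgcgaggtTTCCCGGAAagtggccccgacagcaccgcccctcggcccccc
Sbno2 (chr10:80101188-80101437, minus strand): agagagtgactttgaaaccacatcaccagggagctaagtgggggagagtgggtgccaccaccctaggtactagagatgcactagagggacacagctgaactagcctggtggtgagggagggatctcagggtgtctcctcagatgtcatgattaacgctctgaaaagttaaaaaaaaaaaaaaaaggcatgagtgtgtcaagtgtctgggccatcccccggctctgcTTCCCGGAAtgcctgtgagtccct

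In these stretches the Socs3 match began 154 bases before the start, that of Gpr146 119, that of Irf1 90, that of Icam1 42, that of Sbno2 24 and that of Zfp36 17 bases before it. Bcl6 had 3 matches, the first beginning 168 and the next 122 bases before the start. Gpr146 encodes a G protein-coupled receptor expressed in liver and blood cells, and read 10.00, 10.91 and 10.92 against 8.09, 8.11 and 7.94 (difference 2.56, SE 0.15, 5.91-fold, adjusted p = 1.24e-10). Its groups lay almost 2 apart on the log2 scale at their nearest arrays. At exon level the 3 probe sets of Gpr146 differed by 0.27, 0.65 and 2.29, so the size of the step depends on the probe set. Sbno2, a transcriptional co-regulator known as a STAT3 target in myeloid cells, read 10.63, 10.91 and 10.86 against 9.74, 9.95 and 9.93 (difference 0.93, SE 0.13, adjusted p = 0.000186). For Cish, 2 matches lay at and just after the annotated start (+ strand, chr9:107296656-107296681), as follows.
Cish: gttTTCCTGGAAagTTCTTGGAAatc

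Immediate early transcription factors were split. Of 24 measured, 6 were higher (Nr4a2, Fos, Junb, Klf10, Fosl2 and Nfil3), 0 were lower, and the list median was 0.15, where 0.507% of all genes were called. The nuclear receptor Nr4a2 read 10.68, 12.15 and 12.10 against 9.72, 9.60 and 10.46 (difference 1.71, SE 0.32, adjusted p = 0.00757). Klf10, a zinc finger factor induced by TGF-beta and growth factors, read 10.09, 10.61 and 10.62 against 9.40, 9.24 and 9.67 (difference 1.00, SE 0.15, adjusted p = 0.000671). Neither gene's groups overlapped, but Hyper-IL-6 array 2 of Nr4a2 lay only just above GFP-PFC array 6. Egr1 read 7.40, 7.41 and 7.50 against 7.39, 7.40 and 7.48, the same range in both groups (difference 0.01, 95% interval −0.19 to 0.22). Jun and Fosb also overlapped, with differences of 0.05 (95% interval −0.52 to 0.63) and 0.11 (−0.75 to 0.96). The AP-1 gene Fosl2 was higher by 0.83 (SE 0.17) and the leucine zipper repressor Nfil3 by 0.73 (SE 0.14). Without Hyper-IL-6 array 4 or 6 or GFP-PFC array 4 the calls of Nr4a2, Fosl2 and Nfil3 ended, and without GFP-PFC array 2 those of Nr4a2 and Fosl2 (adjusted p = 0.0666 to 0.12 for Nr4a2, 0.1 to 0.225 for Fosl2 and 0.0838 to 0.124 for Nfil3).

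Other early response genes gave 7 calls of 25, with a median of 0.28, where 0.507% of all genes were called. Ier3, which modulates survival and ERK signalling, read 12.38, 13.14 and 13.06 against 10.00, 10.29 and 10.95 (difference 2.45, SE 0.32, 5.45-fold, adjusted p = 8.69e-05). Zfp36l1, a relative of Zfp36 in mRNA decay, read 10.77, 11.43 and 11.29 against 9.39, 9.64 and 9.78 (1.56, SE 0.16, adjusted p = 1.13e-06). Id2, an inhibitor of helix-loop-helix factors, read 9.12, 10.50 and 10.27 against 8.63, 8.42 and 8.33 (1.51, SE 0.24, adjusted p = 0.00148). In none of the 3 genes did the groups overlap, and none lost its call when 1 array was left out. Gadd45b, a relative of Gadd45g, was higher by 1.04 (SE 0.12, adjusted p = 1.28e-05). Id1, the relative of Id2, read 11.35, 11.49 and 11.59 against 10.20, 10.91 and 10.27 and just missed the threshold (1.02, SE 0.24, adjusted p = 0.0548).

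Further genes among the 25 highest belonged to the cell cycle, the immune surface and signalling. Cdkn2d, an inhibitor of cyclin D kinases, read 11.98, 12.39 and 12.30 against 10.20, 10.39 and 10.51 (1.86, SE 0.16, 3.63-fold, adjusted p = 1.02e-07). Mycn, the N-Myc transcription factor gene, read 11.37, 12.12 and 12.14 against 10.07, 10.54 and 10.18 (1.61, SE 0.23, adjusted p = 0.000343), while its relative Myc was high in both groups, at 13.17, 13.56 and 13.50 against 13.03, 13.20 and 13.13. The groups of Myc overlapped, and the difference of 0.29 had a 95% interval from −0.15 to 0.72. Csrnp1, an early response nuclear protein, read 9.61, 10.86 and 10.87 against 8.29, 8.53 and 8.55 (1.99, SE 0.22, adjusted p = 4.46e-06). Cd274, the immune checkpoint ligand PD-L1, read 9.99, 10.73 and 10.64 against 8.61, 9.07 and 9.18 (1.50, SE 0.24, adjusted p = 0.00126). None of these 4 called genes overlapped between the groups. Tldc2 was higher by 1.80 (SE 0.30) and Bcar3, an adaptor of adhesion signalling, by 1.23 (SE 0.10). The helix-loop-helix repressor Bhlhe40 was higher by 1.64 (SE 0.36, adjusted p = 0.0296) and the mucin Muc1 by 1.19 (SE 0.21, adjusted p = 0.00428). The calls of both ended without Hyper-IL-6 array 4 or 6, and that of Bhlhe40 also without GFP-PFC array 2 or 4 (adjusted p = 0.176 to 0.335 for Bhlhe40, 0.0648 to 0.0824 for Muc1).

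Of 14 ERK feedback genes 0 were called between the stimulations (median 0.10). Over all genes 0.507% were called, so 0 of 14 is near that share. Dusp6, a phosphatase that inactivates ERK and is induced by it, read 11.43, 12.02 and 11.98 after Hyper-IL-6, 11.59, 11.63 and 11.62 after GFP-PFC and 10.52, 10.13 and 10.45 without stimulation. The stimulated groups overlapped, and every one of their arrays lay above every unstimulated array. Hyper-IL-6 minus GFP-PFC was 0.20 with a 95% interval from −0.46 to 0.86. The related phosphatases Dusp4 (0.02, 95% interval −0.45 to 0.49) and Dusp5 (0.11, −0.52 to 0.74) and the AP-1 gene Fosl1 (0.20, −0.27 to 0.67) had intervals on both sides of 0. These intervals leave room for differences of either sign and do not show equal levels. Against unstimulated cells, Hyper-IL-6 and GFP-PFC had fitted differences of 0.78 and 0.76 for Dusp4, 0.98 and 0.87 for Dusp5 and 0.97 and 0.77 for Fosl1, and these pairs of values share the unstimulated arrays. Hyper-IL-6 minus unstimulated was called for Dusp6 and Fosl1 (adjusted p = 0.026 and 0.0402) but not for Dusp4 and Dusp5 (adjusted p = 0.199 and 0.26). In parental cells GFP-PFC minus unstimulated was called for none of these genes (adjusted p = 0.999 each). The arrays of the CIR lines entered neither mean of the comparison, but the fit's estimate of the spread used them. In these lines GFP-PFC minus unstimulated was 0.74 for Dusp4, 1.06 for Dusp5, 1.29 for Dusp6 and 0.76 for Fosl1, all 4 called.

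Other ERK-linked genes were further apart between the stimulations. Egr2, an early growth response factor, read 9.32, 11.20 and 11.08 after Hyper-IL-6 against 8.85, 9.12 and 9.34 after GFP-PFC. Array 2 of Hyper-IL-6 lay just under the highest GFP-PFC array, and the difference of 1.43 (SE 0.36) had an adjusted p of 0.0922. Dusp1, a phosphatase of stress kinases and ERK, read 11.15, 12.22 and 12.10 against 10.33, 10.57 and 10.93 without overlap (1.22, SE 0.30, adjusted p = 0.0914). Spry2, an inhibitor of RAS signalling, read 9.31, 9.93 and 10.03 against 9.10, 8.76 and 9.25 (0.72, SE 0.18, adjusted p = 0.102). Dusp1, Egr2, Id1 and Il4 were the 4 genes that differed by at least 1 without being called.

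**Figure D3:**
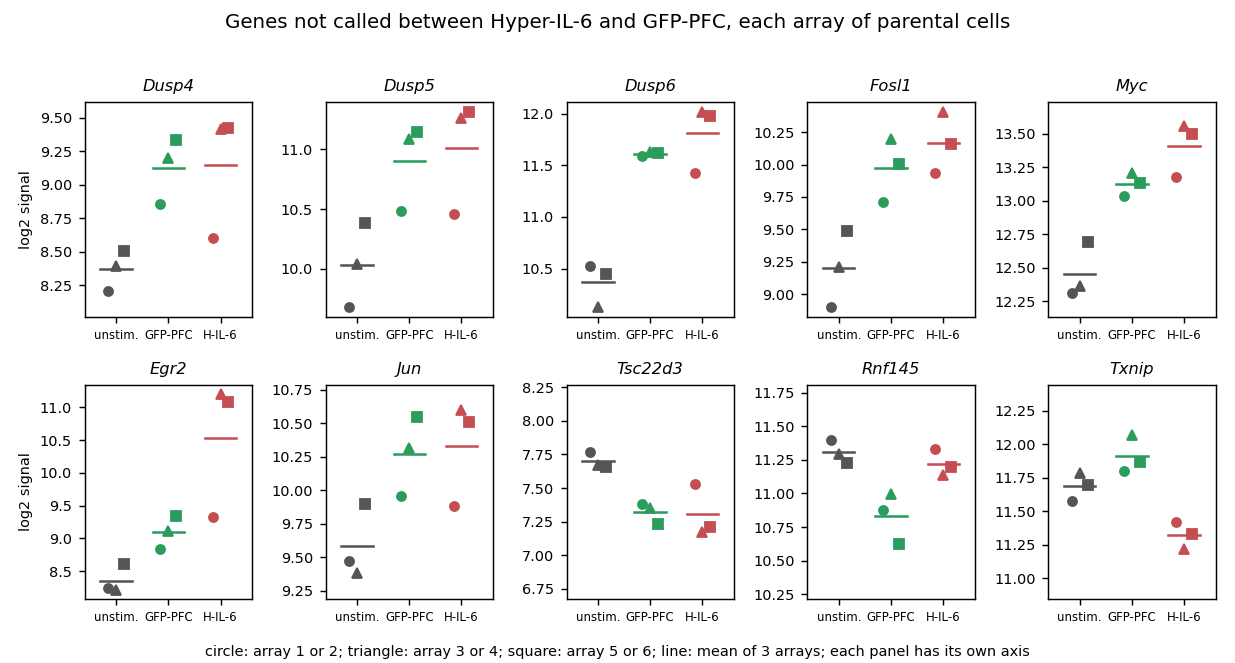
Log2 signal of 10 genes that were not called between Hyper-IL-6 (H-IL-6) and GFP-PFC, in each of the 9 parental arrays, with 1 point per array and a line at the mean of 3. In Dusp6 both stimulated groups lie above the unstimulated arrays (10.13 to 10.52), whereas in Rnf145 the GFP-PFC arrays lie below all Hyper-IL-6 and unstimulated arrays.

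Rnf145, a ubiquitin ligase linked to cholesterol balance, was lowest after GFP-PFC. It read 11.33, 11.14 and 11.20 after Hyper-IL-6, 10.88, 10.99 and 10.62 after GFP-PFC and 11.40, 11.29 and 11.23 without stimulation. The GFP-PFC arrays were below all others, and Hyper-IL-6 overlapped with no stimulation. The difference between the stimulations was 0.39 (SE 0.10, adjusted p = 0.14). Tsc22d3, a glucocorticoid- and FOXO-responsive gene, read 7.53, 7.17 and 7.21 against 7.38, 7.35 and 7.23, and both groups lay below the unstimulated arrays (7.77, 7.67 and 7.66). Txnip, a regulator of glucose uptake, read 11.42, 11.22 and 11.33 against 11.80, 12.07 and 11.87, with all Hyper-IL-6 arrays lower (−0.59, SE 0.14, adjusted p = 0.0737). Txnip and Egr2 were each called under 6 of the 22 other settings, and Dusp1 under 4.

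Lists outside the gp130 and early response programme held few calls or none. Over all genes 0.507% were called, so 0 calls in a list of such size is near that share. Of 22 interferon-stimulated genes only Irf1 and Irf9 were called (median 0.03), Irf9 by 0.90 (SE 0.09, adjusted p = 2.24e-06). Irf9 is a transcription factor of the interferon response, and read 9.20, 9.68 and 9.62 against 8.57, 8.58 and 8.66 without overlap. NF-kB feedback genes gave 0 calls of 14 (median 0.10), the highest being the NF-kB inhibitor Nfkbia at 0.74 (SE 0.24, adjusted p = 0.395). Apoptosis regulators gave 1 of 12 (Mcl1), hypoxia and glycolysis genes 1 of 22 (Hk2), amino acid response genes 1 of 18 and FOXO-linked genes 2 of 17 (Bcl6 and Cited2). The amino acid response member was Nupr1, a stress-induced chromatin protein, at 1.16 (SE 0.15, adjusted p = 9.78e-05), and Cited2, a coactivator-binding protein, was higher by 0.54 (SE 0.11, adjusted p = 0.0179). The call of Cited2 ended without Hyper-IL-6 array 4 or 6 or GFP-PFC array 2 or 4 (adjusted p = 0.052 to 0.252). There were 0 calls among 22 G1/S genes (median 0.01), 21 G2/M genes (−0.05), 21 ribosome biogenesis genes (−0.04), 23 cholesterol genes (−0.03), 21 lipid droplet genes (0.00), 21 lysosome genes (0.05), 23 endocytosis genes (0.03), 18 unfolded protein response genes (0.03) and 16 oxidative stress genes (0.05).

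**Figure D4:**
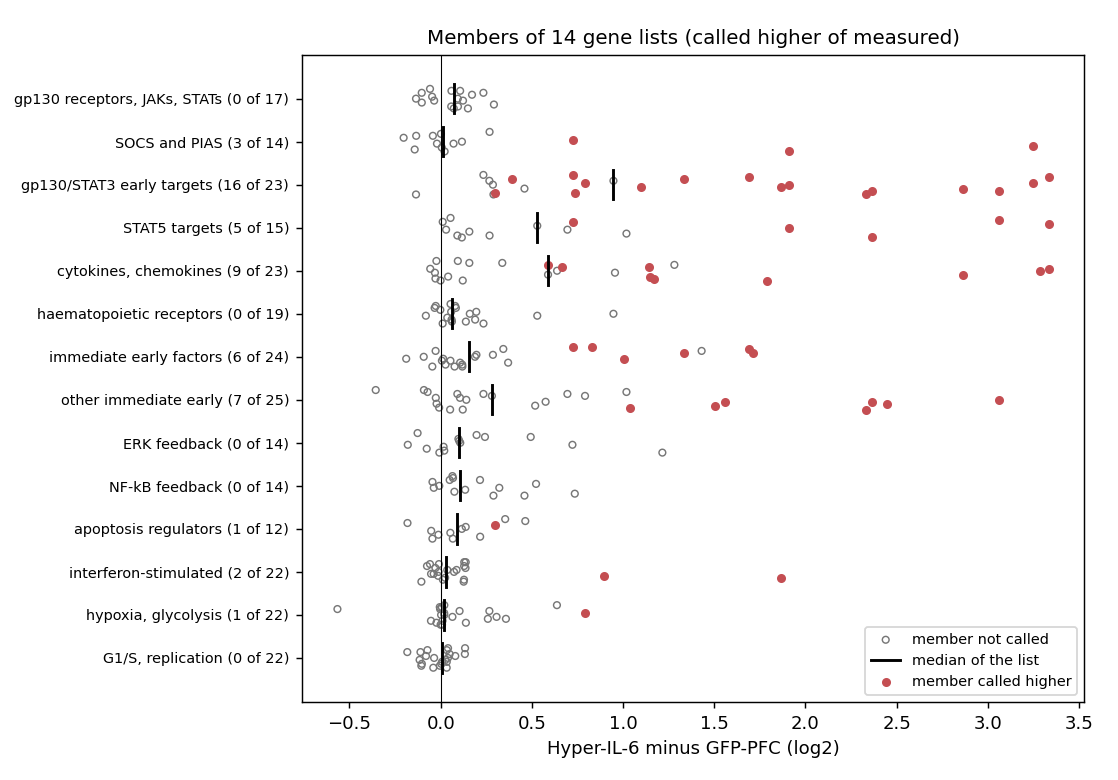
Hyper-IL-6 minus GFP-PFC (log2) of every measured member of 14 gene lists, 1 point per gene, filled where called higher, with a bar at the list's median; the vertical spread of points carries no value. Called members number 16 of 23 in the gp130/STAT3 list, 0 of 14 in the ERK feedback list and 0 of 17 in the gp130 receptor list. Over all genes 0.507% were called.

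The 3 genes called lower after Hyper-IL-6 were Clec2d, Zswim1 and Mblac1. Clec2d, a lectin-like ligand of an NK cell receptor (probe set 10542156), read 10.77, 10.20 and 10.28 after Hyper-IL-6, 11.45, 11.10 and 11.09 after GFP-PFC and 11.63, 11.16 and 11.12 without stimulation. Hyper-IL-6 arrays were below all others, and the difference was −0.80 (SE 0.14, adjusted p = 0.00477). The zinc finger gene Zswim1 (9.20, 9.22 and 9.13 against 9.47, 9.61 and 9.58) and Mblac1, of the metallo-beta-lactamase fold family (9.47, 9.14 and 9.30 against 9.72, 9.73 and 9.56), were each lower by a fitted −0.37. Leaving out Hyper-IL-6 array 4 or 6 or GFP-PFC array 2 ended all 3 calls, GFP-PFC array 4 those of Zswim1 and Mblac1, and Hyper-IL-6 array 2 or GFP-PFC array 6 that of Zswim1. Adjusted p was then 0.0644 to 0.0846 for Clec2d, 0.0764 to 0.306 for Zswim1 and 0.196 to 0.56 for Mblac1.

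The unstimulated parental arrays were set beside both stimulations, in comparisons that share arrays with the direct one. Hyper-IL-6 minus unstimulated was called for 154 genes (0.773%), and 90 of the 98 higher genes were among them. The 8 others were B4galt5, Batf, Ifitm5, Nab2, Plscr2, Prdm1, Tbc1d14 and Tha1. GFP-PFC minus unstimulated was called for 0 genes (0%) in limma, with 781 at an unadjusted p under 0.05. GFP-PFC arrays 2, 4 and 6 deviated together with unstimulated arrays 1, 3 and 5, in that order, so neighbouring numbers were also fitted as a block, a setting chosen after seeing the data. Under that block 0 genes were again called in the fit to all arrays, with 1131 at an unadjusted p under 0.05 and a lowest adjusted p of 0.0925, and 0 in the fit to these 6 arrays alone, with 1240. Within the neighbouring numbers GFP-PFC was the higher each time for Dusp6 (by 1.06, 1.50 and 1.17), Il6 (0.53, 1.11 and 0.52) and Zfp36 (0.48, 1.02 and 0.43). The 0 calls therefore do not show that the groups had equal levels. Hyper-IL-6 minus unstimulated was called for 325 genes (1.63%) under the block, with 97 of the 98 among them. Hyper-IL-6 arrays 2, 4 and 6 did not deviate together with unstimulated arrays 1, 3 and 5 (correlations −0.463, −0.201 and −0.316), so the block does not describe their deviations. For 85 of the 98 genes GFP-PFC lay within 0.25 of unstimulated, for 12 it lay at least 0.25 above (Fosl2, Ier3, Il6, Lif, Mycn, Nfil3, Osm, Pvr, Tiparp, Tnfsf14, Tnfsf9 and Zfp36) and for Irf1 at least 0.25 below. The widest of the 12 were Il6 (0.72), Zfp36 (0.64) and Mycn (0.57), none of them called. Hyper-IL-6 minus unstimulated was 1.89, 2.97 and 2.18 for these genes.

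**Figure D5:**
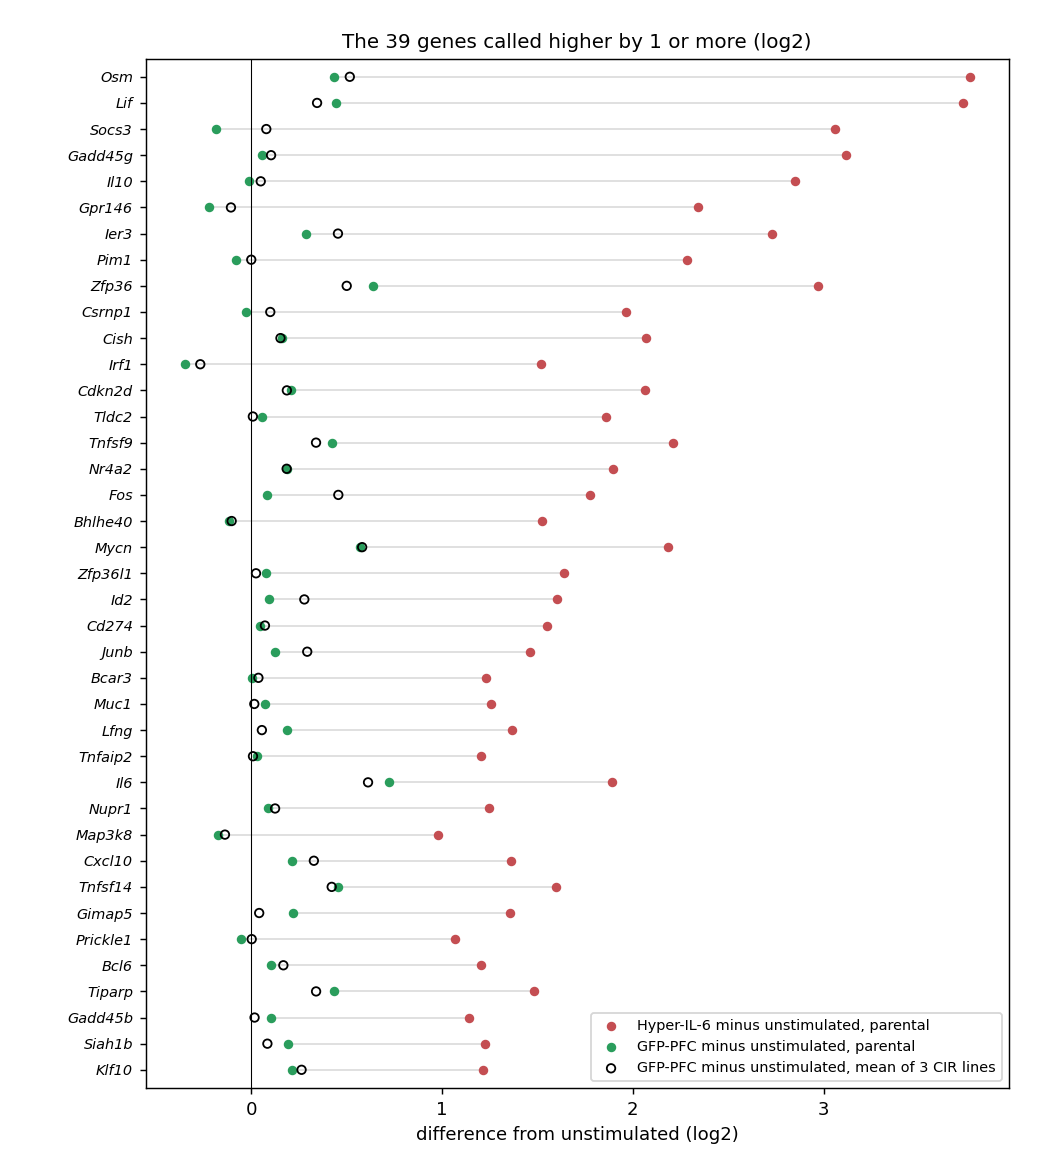
For the 39 genes called higher by at least 1, the horizontal axis gives Hyper-IL-6 minus unstimulated and GFP-PFC minus unstimulated in parental cells, which share 3 unstimulated arrays, and GFP-PFC minus unstimulated as the mean of the 3 CIR lines (log2). Hyper-IL-6 reaches 3.77 for Osm, and the GFP-PFC points lie between −0.35 (Irf1) and 0.72 (Il6).

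The 9 GFP-PFC arrays of the CIR lines, which enter neither mean of the comparison, were set beside the same 3 Hyper-IL-6 arrays. In 75 of the 98 genes all 3 Hyper-IL-6 arrays lay above all 9, and 2.24% of all genes did so. The 98 were chosen for being high in these Hyper-IL-6 arrays, so their share is no separate support. In the 9 arrays Socs3 spanned 9.10 to 10.54 with a median of 9.77, Osm 8.83 to 10.15 (median 9.17) and Gadd45g 9.10 to 9.97 (median 9.50), all below the lowest Hyper-IL-6 array of the gene. Fos, Id2, Il6, Mycn, Cebpb, Cebpd, Cxcl10, Il13 and Nfil3 were among the 23 that overlapped. GFP-PFC minus unstimulated in the CIR lines was called for 16 genes (0.0803%), and 0 of the 98 were among them. With neighbouring numbers as a block it was called for 78 genes (0.392%), and 5 of the 98 were among them, all higher after GFP-PFC: Mycn (0.58), Osm (0.52), Fosl2 (0.33), Junb (0.29) and Hk2 (0.27).

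The higher genes were also described by level, length and exon coverage. Their median level after GFP-PFC, from the same arrays as the test, was 9.47 against 7.86 over all genes, and 2 of the 98 had a GFP-PFC mean below the lower quartile, Il10 and Plscr2. The annotated gene span (RefSeq) had a median of 12644.5 bases for the 98, 5791 bases for the 39 highest and 17706 bases for all genes. At exon level, 97 of the 98 genes had probe sets, the median difference over a gene's exon probe sets was above 0 in all 97, and in 78 every probe set was higher after Hyper-IL-6. Exon and gene values come from the same hybridisations, so this describes the genes' coverage and is no replicate.

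The Hyper-IL-6 arrays differed among themselves in one direction. Array 2 was the lowest of the 3 in 93 of the 98 higher genes, against 28.2% of all genes. Its median height above the GFP-PFC mean was 0.50 over these genes, against 0.89 for array 4 and 0.93 for array 6. GFP-PFC array 2 was the lowest of its group in 62 of the 98 (45.1% of all genes). Without Hyper-IL-6 array 2 the count of calls rose to 155, and the part of this array in the spread was not tested. Of the 101 calls, 39 stood when each of the 6 arrays was left out in turn. Under all 22 other settings that were run 26 genes were called each time, all higher: Arid5a, Bcar3, Cdkn2d, Cish, Csrnp1, Gadd45b, Gadd45g, Gpr146, Ier3, Il10, Il17ra, Irf1, Irf9, Junb, Lif, Map3k8, Metrnl, Mycn, Osm, Rhoh, Sbno2, Siah1b, Socs3, Trp53bp2, Zfp36 and Zfp36l1.

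Other settings ended further calls. Without both arrays numbered 4, 70 calls ended (adjusted p = 0.0509 to 1) and without both numbered 6, 57 (adjusted p = 0.0717 to 0.523). In a fit to the 9 parental arrays alone 62 ended (adjusted p = 0.0546 to 0.674). Among genes described above whose calls stood when 1 array was left out, Klf10 lost its call without both arrays numbered 4 (adjusted p = 0.122) and in the fit to the 9 arrays (adjusted p = 0.0744), Cd274 without both numbered 4 (adjusted p = 0.0589) and Nupr1 in the fit to the 9 arrays (adjusted p = 0.0550). Id2 and Tldc2 lost theirs in both of these settings (adjusted p = 0.115 and 0.131 for Id2, 0.253 and 0.293 for Tldc2). In a fit to the 6 arrays alone 45 calls ended (adjusted p = 0.0513 to 0.403), among them those of Bcl6, Bhlhe40, Ccl4, Cebpb, Cebpd, Clec2d, Cxcl10, Fos, Fosl2, Id2, Il13, Il6, Mcl1, Muc1, Nfil3, Nr4a2 and Tldc2. With exon-level values 28 ended (adjusted p = 0.0531 to 0.769), among them those of Il6, Socs1, Cebpb, Cited2, Zswim1 and Mblac1.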

How the data were processed

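RNA of 27 samples was hybridised to Affymetrix mouse arrays. Per the labels' protocols, RNA was amplified with the Ambion WT Expression kit. With Affymetrix Expression Console, the authors made the deposited log2 values at gene and exon level, per the submitters' processing notes and the labels, and its version, algorithm, normalization and log base are not given in the sources used here. The values were read as log2 because they lay between 2.97 and 14.9, so each fold rests on that reading. Of 35556 probe sets, 21789 carried 1 symbol, 1621 several and 12146 none. Of a gene's probe sets the one with the highest mean was used (19920 genes, 23 symbols updated through RefSeq). No gene was filtered out.

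A linear model with 1 mean per group of line and stimulation was fitted to all 27 arrays (9 groups) with limma 3.58.1 in R 4.3.3, with files read by data.table (version 1.17.8). Moderated tests were two-sided, adjusted by Benjamini-Hochberg over all 19920 genes, with a threshold of 0.05. Every adjusted p, SE and 95% interval is from this fit, except where another setting is given. The procedure was tested on simulated data. Named genes were the 25 highest and 10 lowest non-overlapping calls, up to 6 called members of each of the 29 gene lists (up to 4 with the highest level where fewer than 3 passed) and a short set of pathway genes; other names were chosen after their values were seen. The comparison, the lists and this rule were chosen with earlier results of these data known. Genes that a list names but that were not measured here are not analysed here. In each of the 4 lines GFP-PFC arrays 2, 4 and 6 deviated from their group mean together with unstimulated arrays 1, 3 and 5 (correlations across genes 0.283 to 0.633), while Hyper-IL-6 arrays did not (−0.463, −0.201 and −0.316); this pairing comes from the data and the order of the numbers.

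Alternatives were the arrays in the fit, a replicate block, array weights, exon-level values, the handling of probe sets, dim genes, quantile normalization, median centring, another variance model and leaving out arrays.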

Additional observations from a re-analysis of the deposited data

How the results depend on the processing

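The count of 101 genes was 66 when only the 6 compared arrays were fitted, 42 in the fit to the 9 parental arrays, 1927 with array weights and 236 without the arrays numbered 1 and 2 in all groups, a setting chosen after seeing the data (191 higher, 45 lower). Leaving out 1 array, or both arrays of 1 number, gave 31 to 155 calls. Exon-level values, probe set handling, the filter on dim genes, quantile normalization, median centring and the variance model gave 82 to 109. Of the 101 genes 0 changed sign under any of the 22 settings. Where arrays were left out this was fixed in advance, since the groups of these genes did not overlap. A replicate block or another variance model likewise leaves the difference as it is. The cause of the differing counts was not tested. With the mean of the probe sets in place of the highest, 1 call ended, that of Tent5a (adjusted p = 1).

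Replicate numbers 2, 4 and 6 are shared by both groups, but same-numbered arrays did not deviate together (correlations of deviations −0.2136, −0.09175 and −0.1595). Whether they share more than a number is not known. With a replicate block the count was 251 in the fit to all arrays (211 higher, 40 lower) and 95 in the fit to the 6 arrays, and by these deviations 0 of 3 Hyper-IL-6 arrays correlated best with its own number. The 251 include all 101 genes and the 95 only 71 of them, since 30 calls ended (adjusted p = 0.0609 to 0.510), among them those of Il6, Il13, Nfil3, Cebpb, Mcl1, Prdm1, Zswim1 and Mblac1. Stat3 was called under the block in all arrays (adjusted p = 0.0351), Il4ra under both blocks (adjusted p = 0.000962 and 0.00523) and Fcer1a under that in the 6 arrays (adjusted p = 0.0316). With neighbouring numbers as a replicate block, Hyper-IL-6 minus unstimulated had 325 calls in place of 154 and GFP-PFC minus unstimulated in the CIR lines 78 in place of 16. The Hyper-IL-6 arrays did not deviate together with their unstimulated neighbours.

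With 3 arrays per group the median SE of a difference was 0.093, and signals near background may hide changes of weakly expressed genes, which was not tested.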

Other observations

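Small nucleolar RNAs, the guides of ribosomal RNA modification, were looked at after their values were seen. All 31 measured Snord genes were lower after Hyper-IL-6 than after GFP-PFC, by −0.0015 to −0.75 (median −0.24), and 16 of 20 Snora genes were lower (median −0.18), against 9292 of 19869 other genes. In limma 0 of these 51 genes were called, 15 Snord and 6 Snora genes at an unadjusted p under 0.05. With array weights 19 Snord and 10 Snora genes were called, and in the fit to the 6 arrays alone 3 and 0. At gene level at least 29 of 31 Snord genes were lower under every setting run, 30 of 31 with quantile normalization and 31 with median centring. Several settings, such as a replicate block, leave each difference as it is, and these genes share the same 6 arrays. The counts of lower genes are therefore no separate support. The largest differences were those of Snord42a (−0.75, adjusted p = 0.0922), Snord52 (−0.64, adjusted p = 0.0740), Snord58b (−0.63, adjusted p = 0.504) and Snord42b (−0.52, adjusted p = 0.106). The mean Snord level was 10.38, 10.31 and 10.41 after Hyper-IL-6, 10.67, 10.68 and 10.57 after GFP-PFC and 10.65, 10.42 and 10.40 without stimulation. Unstimulated array 1 thus lay with the GFP-PFC arrays and unstimulated arrays 3 and 5 with the Hyper-IL-6 arrays. Most of these genes lie inside introns of host genes and were amplified by the same kit, and a part of RNA preparation in the difference was not tested.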
